A study of Drosophila melanogaster with 4 samples.

Results

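Isolated H4K8ac clusters are enriched stretches that stood at least 10 kb away from the next enriched stretch on either side. They were chosen by the gaps measured in the series-wide list of clusters on the chromosome arms 2L, 2R, 3L, 3R and X, and the first and last cluster of each arm were left out. The rule found 558 isolated clusters among 9889 clusters on these arms, or 5.64%, out of 9912 clusters in the whole list. The ChIP-seq samples were made from Drosophila melanogaster of the wild-type strain Oregon-R, as whole larvae of the third instar, with a rabbit polyclonal antibody to histone H4 acetylated at lysine 8. No transgene, deletion or treatment is named in the labels. The series held 2 ChIP replicates and 2 input DNA libraries, and a list of clusters was analysed here for each ChIP replicate and for the series as a whole. Whether each replicate was a collection of its own is left unsaid in the labels, so their spread may be purely technical. The larvae hold many tissues, so a stretch marked in a few cells and one marked weakly in all cells cannot be told apart in these lists.

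Acetylation of lysine 8 takes away a positive charge from the tail of histone H4, and acetylated tails are bound by proteins with bromodomains. The mark is written by histone acetyltransferases, removed by deacetylases, and found mostly at active promoters, over transcribed genes and at enhancers. In the compact fly genome active genes often lie side by side, and marks of active chromatin then form groups of neighbouring peaks. A peak with no enriched sequence close by on either side is thus the less usual arrangement.

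All gaps, lengths and positions are in base pairs of FlyBase release 5, and the score is the authors' own value per cluster, with no scale stated. It is used only to rank clusters within a list. The lists hold no read counts, so the depth is unknown. Replicate 1 held 5688 clusters on the 5 arms and replicate 2 held 5472. A series-wide cluster was counted as met in a replicate when it shared at least 1 base with a cluster of that replicate. It is not stated which reads made the series-wide list, and they may be those of the replicates, so being met is not an independent check. With 2 replicates of 1 group no test over samples can be made, and the shares below are descriptions.

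The smaller of the 2 gaps beside an isolated cluster had a median of 16.5 kb, with quartiles of 12.5 and 25.9 kb and a maximum of 184 kb, whereas the median over all clusters of the arms was 805 bp. The larger gap had a median of 38.3 kb. Of the 558 clusters, 204 (36.6%) had at least 20 kb on both sides and 42 (7.53%) at least 50 kb. These gaps are what chose the clusters and are given as a description. Just inside the limit lay clusters at X:16223380-16225056, with a smaller gap of 10003 bp, and at 3L:21181854-21182952, with 10017 bp. The next were at X:12584148-12586738, X:20514490-20515618 and 2R:9594058-9595198, and none of these 5 was met in a replicate list. Just outside lay clusters at 2R:2633866-2634910, with 9929 bp, and at X:7269002-7270428, with 9887 bp, followed by 3R:24716114-24744496, 2L:21198070-21200150 and 2R:19699576-19706090. Of these 5, replicate 1 met 3 and replicate 2 met 2. The 75 clusters with a smaller gap from 9 kb to under 10 kb had a median length of 1481 bp, and the 58 from 10 kb to under 11 kb had a median of 1233 bp. Replicate 1 met 23 of the 75 and 3 of the 58, and replicate 2 met 20 and 6, so these narrow bands stood further apart than the broad gap classes beside them.

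Isolated clusters were short. Their median length was 1266 bp, with quartiles of 1089 and 1629 bp, against a median of 1855 bp and quartiles of 1301 and 3305 bp for the other 9331 clusters. The 558 clusters spanned 991 kb, which was 2.92% of the bases in clusters for 5.64% of the clusters. Lengths of 2 kb or more were reached by 63 isolated clusters (11.3%) and 44.1% of the others, and lengths of 5 kb or more by 18 (3.23%) and 15.9%. The shortest length in the series-wide list was 1001 bp, and 18 isolated clusters had exactly that length. The replicate lists held nothing shorter than 1301 bp, and 298 isolated clusters (53.4%) were shorter than this, compared with 2330 of the 9331 others. The order ran through the clusters with a wide gap on only 1 side. These 2577 clusters had a median of 1587 bp, between the isolated clusters and the 6744 clusters with smaller gaps on both sides, at 1963 bp. Gap and length come from the same calls, so no test is attached to these differences.

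**Figure D1:**
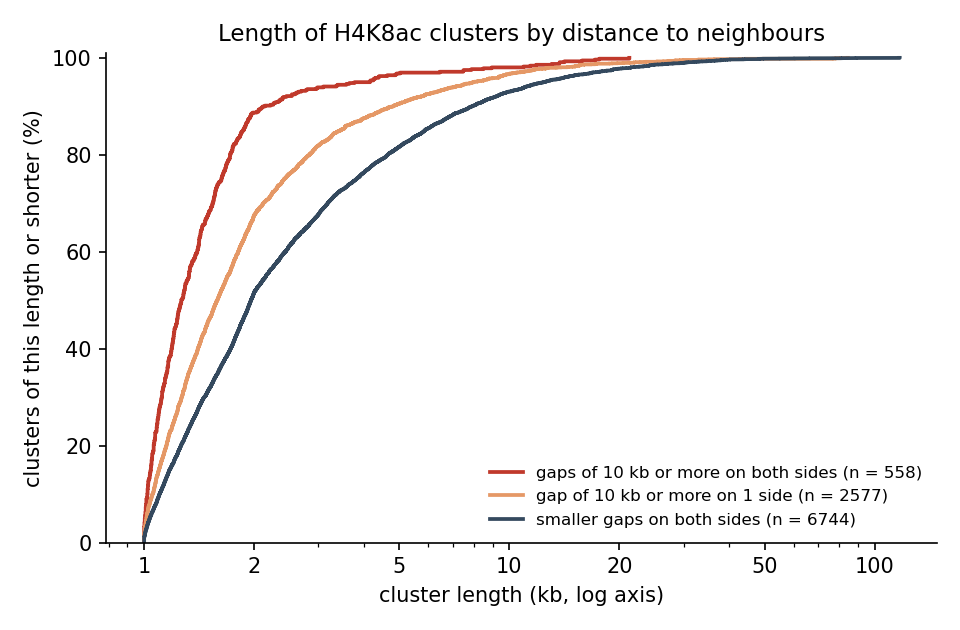
Cumulative share of clusters (vertical axis, percent) by cluster length in kb (horizontal log axis) for isolated clusters, clusters with a wide gap on 1 side and clusters with smaller gaps on both sides. The isolated clusters lie to the left, with a median of 1266 bp against 1587 and 1963 bp, and all 3 curves bend at about 2 kb.

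Median length fell with distance over the whole range of gaps, on both sides of the limit that was used. Clusters whose nearer neighbour was under 500 bp away had a median length of 2273 bp. The median was 1743 bp at 1 to under 2 kb, 1398 bp at 5 to under 10 kb, 1294 bp at 10 to under 20 kb and 1207 bp at 50 kb or more. The share met in the replicate lists fell alongside, from 49.8% in replicate 1 and 47.2% in replicate 2 at gaps under 500 bp to 22.6% and 22.0% at 5 to under 10 kb. Among the isolated clusters it was 13.0% in both replicates at 10 to under 20 kb, 17.3% and 13.6% at 20 to under 50 kb, and 9.52% and 11.9% for the 42 clusters at 50 kb or more. The isolated clusters thus had no steady trend with gap in the share met.

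**Figure D2:**
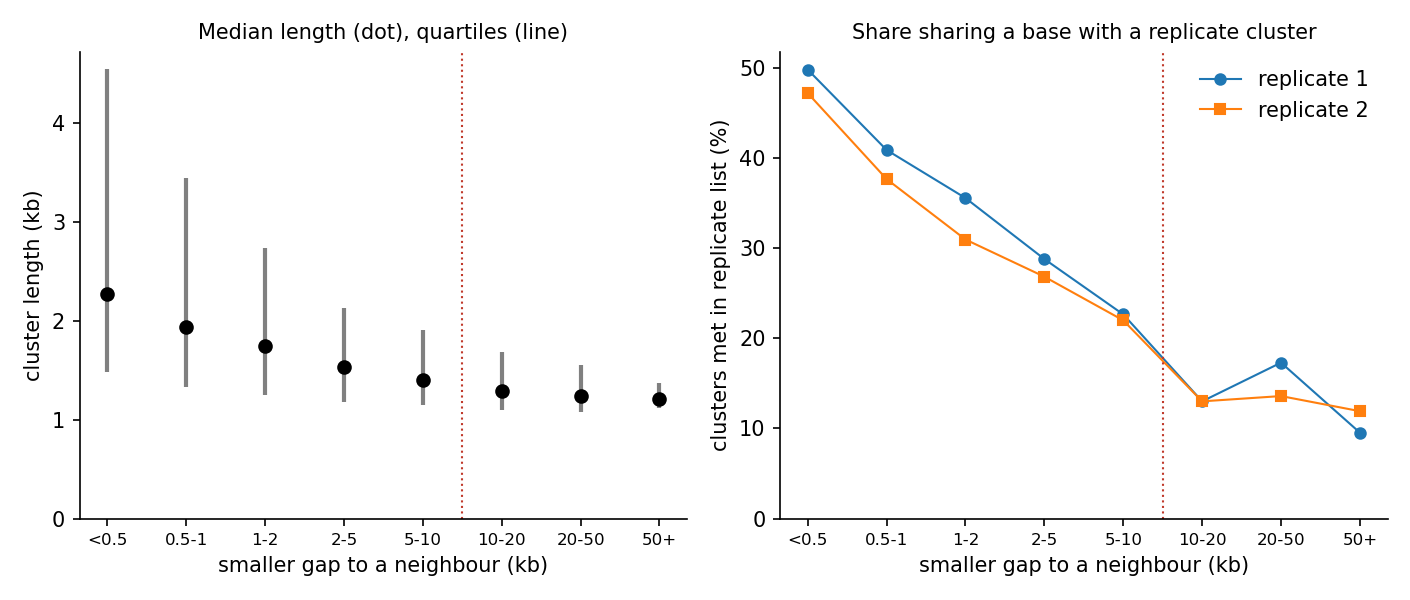
Cluster length in kb (left, dot for the median and line for the quartiles) and percent of clusters met in each replicate list (right) by the smaller gap to a neighbour in kb. Isolated clusters are right of the dotted line, where the median length is 1207 to 1294 bp and 9.52% to 17.3% were met.

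Few isolated clusters were met in a replicate list. Replicate 1 met 78 of 558 (14.0%), where 38.8% of all clusters of the arms were met, and replicate 2 met 73 (13.1%), where 36.1% of all were met. Both replicates met 36 (6.45%), against 25.2% of all clusters. Replicate 1 alone met 42, replicate 2 alone 37, and 443 (79.4%) were met in neither, compared with 48.6% of the other clusters. The mean over the replicates was 13.5% ± 0.634 (SD, n = 2) for isolated clusters and 38.9% ± 1.98 (SD, n = 2) for the others. The difference was -26.3 percentage points in replicate 1 and -24.4 in replicate 2, and both were larger than the difference between the replicates. By bases, replicate 1 covered 27.6% of the isolated sequence and replicate 2 covered 22.2%, against 52.3% and 48.3% of the other clusters.

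At equal length most of this difference was gone. When the other clusters were weighted to the lengths of the isolated ones, the share met was 16.1% in replicate 1 and 14.8% in replicate 2. The isolated clusters were then lower by 2.15 and 1.67 percentage points (mean difference -1.91 ± 0.338 SD, n = 2). The weighted share met in both replicates was 6.60%, which corresponds to 36.8 clusters where 36 were seen. The share met in neither differed more, at 79.4% of the isolated clusters and a weighted 75.7% of the others, or 3.67 points. This weighting was chosen after the data were seen.

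The bins of length show where the remainder lay. From 1 to under 1.5 kb, which held 378 isolated clusters, 2.65% of them were met in replicate 1 and 4.50% in replicate 2, against 5.10% and 4.58% of the others. From 1.5 to under 2 kb, the 117 isolated clusters were met at 23.1% and 14.5%, against 26.9% and 23.9%. From 2 to under 3 kb the values were 51.7% and 41.4% of 29 isolated clusters and 52.3% and 46.7% of the others. From 3 to under 5 kb they were 50.0% and 62.5% of only 16 isolated clusters, against 74.6% and 67.6%. All 18 isolated clusters of 5 kb or more were met in replicate 1 and 17 in replicate 2, or 100% and 94.4%, against 97.1% and 95.6%. The isolated clusters were below the others in both replicates in the 4 bins under 5 kb, though hardly so at 1 to under 1.5 kb in replicate 2. Neither order held in both replicates at 5 kb or more.

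**Figure D3:**
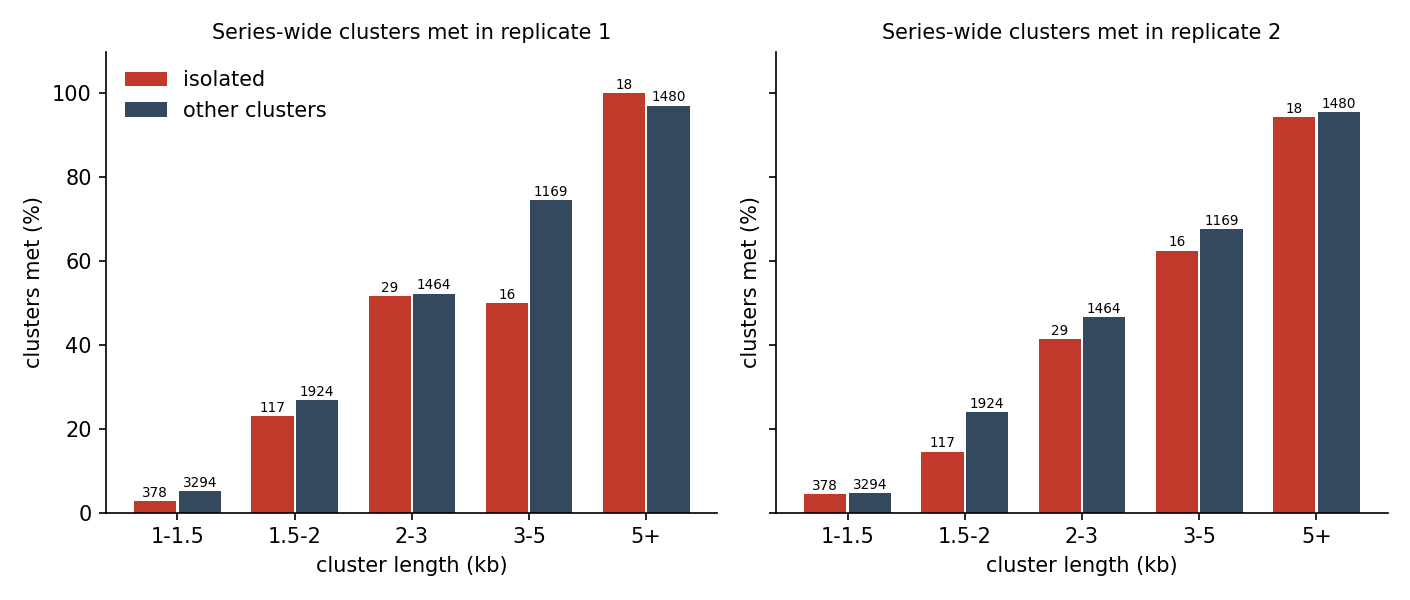
Percent of series-wide clusters met in replicate 1 (left) and replicate 2 (right) by cluster length in kb, for isolated clusters and all others, with the number of clusters over each bar. Both groups rise from under 6% at 1 to 1.5 kb to over 94% at 5 kb or more.

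The longest isolated clusters were broad marked islands that both replicates held, with 1 exception at 5 kb or more. The 18 of 5 kb or more were 3.23% of the isolated clusters and 21.4% of their bases. Of the 564 clusters of 10 kb or more on the arms, 11 were isolated. The longest, at X:2342714-2364018, was 21.3 kb long with a score of 0.715. It lay 34.6 kb from the cluster before it and 39.4 kb from the one after, and replicate 1 covered 91.2% of it, replicate 2 71.3%. Replicate 1 split it into 3 clusters and replicate 2 into 6. The next, at 3R:18447214-18464830, was 17.6 kb long and was covered over 78.9% and 54.1%, by 5 clusters in each replicate. At 2L:13505576-13522736, 17.2 kb were covered over 69.8% and 42.1%.

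The cluster at 2R:10369072-10384894 was nearly filled in both replicates. It was 15.8 kb long with a score of 0.807, the highest of the isolated clusters that were met in a replicate, and was covered over 97.7% and 96.6%. Replicate 1 held it as a single cluster from 10369158 to 10384611, and replicate 2 as 2 clusters. At 3R:16775894-16790040 the 14.1 kb were covered over 79.5% and 75.5%. On 3L the longest was at 3L:7244596-7256000, an 11.4 kb island with 52.4 kb of sequence free of clusters before it and 64.8 kb after it, covered over 71.6% and 55.8%. The other clusters among the 10 longest were at 3R:10906922-10920654, 2R:8481454-8495146, 2R:10104682-10117730 and 2L:8416794-8428630, and were covered over 57.5% to 97.4% in replicate 1 and 59.6% to 79.7% in replicate 2. Coverage was greater in replicate 1 for 16 of the 18 clusters of 5 kb or more and greater in replicate 2 for 2. The single one absent from a replicate was at X:10100488-10105510, where 86.2% of 5023 bp lay in replicate 1 and none in replicate 2.

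Shorter isolated clusters were also met in both replicates, where the replicate borders mostly lay inside the series-wide ones. The 36 had a median length of 4641 bp, against 1629 bp for the 79 met in 1 replicate and 1195 bp for the 443 met in neither. They were covered over a median of 79.2% in replicate 1 (range 46.2% to 97.7%) and 65.3% in replicate 2 (28.2% to 96.6%). The shortest was at 3L:19640284-19641996, 1713 bp long, with 84.6% and 82.3% covered. At 2L:573018-575074 a cluster of 2057 bp was found from 573070 to 574969 in replicate 1 and from 573085 to 575012 in replicate 2, with covered shares of 92.4% and 93.7%. In 19 of the 36 each replicate held a single cluster, which began a median of 266 bp after the series-wide start in replicate 1 and 194 bp after it in replicate 2. It ended a median of 127 bp and 251 bp before the series-wide end, respectively. In replicate 1, 60 of 78 isolated clusters were met by one with at least 10 kb on both sides in that list, and in replicate 2, 58 of 73 were. The gap rule nearly fixes this count, since nearly all replicate clusters met series-wide clusters, and these are at least 10 kb away from an isolated one.

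For the same reason few replicate clusters could lie near an isolated cluster that was not met, and these distances are a description. The 480 unmet in replicate 1 lay a median of 29.9 kb from the nearest replicate 1 cluster, and the 485 unmet in replicate 2 a median of 31.7 kb from the nearest of replicate 2. A replicate cluster within 10 kb was found for 6 of the 480 and 2 of the 485.

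By median score the isolated clusters as a whole resembled the rest, but the 2 groups differed in length, and the order of their scores changed with length. The median score was 0.426 for isolated clusters and 0.427 for the others. Isolated clusters were more often at the extremes, with 28.7% in the lowest quartile of all scores and 27.4% in the highest, against 24.8% and 24.9% of the others. Below 1301 bp the isolated clusters had a median score of 0.453, against 0.416 for the others. At 1301 bp or more their median was 0.392, against 0.432, but median lengths also differed there, at 1661 and 2337 bp. In bins of length the median scores were 0.441 against 0.405 (1 to under 1.5 kb), 0.377 against 0.385 (1.5 to under 2 kb) and 0.429 against 0.438 (2 to under 3 kb). They were 0.399 against 0.458 at 3 to under 5 kb, with 16 isolated clusters, and 0.544 against 0.550 at 5 kb or more. With the others weighted to equal length, the mean score was 0.438 for isolated clusters and 0.413 for the others. Score fell with length among the isolated clusters (Spearman correlation -0.29 over 558 clusters) and rose with length among the others (0.45 over 9331). Under 2 kb it fell with length in both, at -0.44 and -0.26, and from 2 kb up it rose in both, at 0.43 over 63 isolated clusters and 0.56. Within these broad length classes the sign was thus the same in both groups, but narrower bins did not all follow them. At 1 to under 1.5 kb the correlation was -0.38 for isolated clusters and -0.39 for the others, and at 1.5 to under 2 kb it was 0.25 and 0.24. At 2 to under 3 kb it was -0.12 over 29 isolated clusters and 0.02 for the others. From 3 kb up it was positive in both groups in each bin. Clusters of one list share their libraries and are not replicates, so these correlations carry no p-value.

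**Figure D4:**
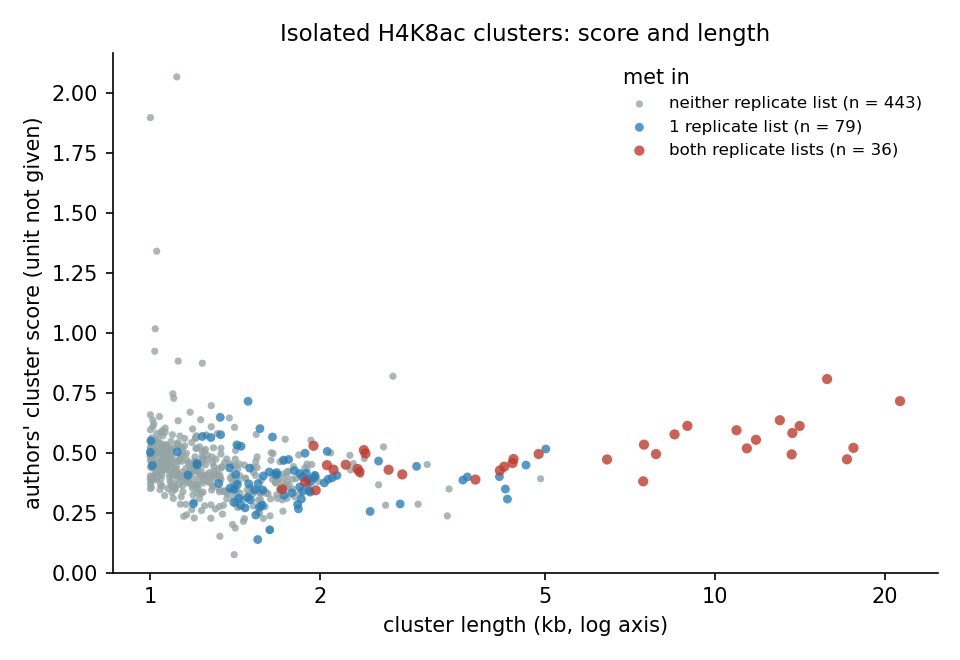
The authors' cluster score (vertical axis, unit not given) against length in kb (horizontal log axis) for the 558 isolated clusters, coloured by the number of replicate lists that met them. The highest scores belong to clusters near 1 kb met in neither list, and the clusters met in both lie mostly above 2 kb.

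The 3 highest scores of all clusters on the 5 arms were those of isolated clusters, and no replicate list met them. They lay at X:14451750-14452864 (1115 bp, score 2.07), 3R:8745852-8746852 (1001 bp, score 1.90) and 2R:2171346-2172372 (1027 bp, score 1.34). All 3 were shorter than 1301 bp, the shortest length in the replicate lists. Such short clusters were also among the top scores of the others. Of the 10 highest scores of all clusters, 7 belonged to others, with 3 shorter than 1301 bp and 4 met in a replicate. Of the 100 highest, 7 of 9 isolated clusters and 7 of 91 others were shorter than 1301 bp. The gaps beside the X cluster were 72.7 and 50.6 kb, beside the 3R cluster 176 and 38.3 kb, and beside the 2R cluster 33.1 and 217 kb. Of the 10 isolated clusters with the highest scores, 8 were shorter than 1301 bp and 5 were on the X, at X:7020256-7021276, X:4788698-4789818, X:20463104-20464340 and X:12089578-12090674 besides the first one. A further short one was at 3R:21149876-21150894. The 2 longer ones were the 2R island of 15.8 kb described above and a cluster of 2693 bp at 3L:4849396-4852088, with a score of 0.819. The 2R island was met in both replicates and the other 9 in neither, at least 11.8 kb from any replicate 1 cluster and 18.5 kb from any replicate 2 cluster. In the highest quartile of scores the isolated clusters had a median length of 1121 bp and 15.7% and 17.6% were met in replicates 1 and 2. The others in that quartile had a median of 4720 bp and 74.9% and 74.4% were met. These groups were not of equal length, since 70.6% of the isolated clusters and 14.0% of the others in it were shorter than 1301 bp. Below that length, over all scores, replicates 1 and 2 met 0.336% and 3.02% of the isolated clusters and 2.66% and 2.53% of the others.

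The most remote clusters were short and mostly near a centromere. The 10 with the largest smaller gap had a smaller gap of 111 to 184 kb, lengths of 1001 to 1921 bp, and scores of 0.249 to 0.658. The largest smaller gap, 184 kb, lay between 2 neighbours on 2R and was shared by both. The first, at 2R:431116-432678, had 295 kb before it and a score of 0.249, and it was met in neither replicate. The second, at 2R:616660-618580, had 359 kb after it and was 97.0% covered in replicate 1 and not met in replicate 2. The same held for the cluster at 2L:22735022-22736846, with 93.6% covered in replicate 1. The other 7, at 3R:26882552-26884300, 2R:1146460-1147504, 2L:21617202-21618310, X:20719966-20721172, 2R:134472-135810, X:14245646-14246646 and 3L:10083190-10084454, were met in neither. The one at 2L:21617202-21618310 lay only 0.139 kb from a replicate 1 cluster, though 128 kb from the nearest of replicate 2. Of the 10, 7 lay in the 2 Mb nearest the centromere, counted from the end of the arm sequence.

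Isolated clusters were densest on the X and sparsest on 3L under the gap limits of 5, 10 and 20 kb. This order did not hold when clusters with a score below the median were removed and the gaps were measured anew. That step gave a different set of 863 isolated clusters. The X was then the sparsest arm, at 6.42 per Mb, against 6.52 on 3L, 6.95 on 2L, 7.94 on 2R and 8.28 on 3R. With all scores and the limit of 10 kb, isolated clusters numbered 128 on the X, or 5.71 per Mb, 105 on 2R (4.97 per Mb), 111 on 2L (4.82), 129 on 3R (4.62) and 85 on 3L (3.46). As a share of the clusters of each arm, they made up 7.20% on the X, 6.05% on 2L, 5.65% on 2R, 5.52% on 3R and 4.09% on 3L. The list has no replicates, so the spread of these densities is unknown. The lengths differed little, with medians from 1231 bp on 3R to 1343 bp on 2R. Scores were higher on the X, with a median of 0.494 against 0.408 for the isolated clusters of the 4 autosomal arms. The other clusters of the X also had higher scores, at 0.475 against 0.418. At 1 to under 1.5 kb the isolated clusters had higher median scores than the others on the X (0.513 and 0.461) and on the autosomal arms (0.420 and 0.395).

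The share met on each arm followed no single order in both replicates. On the X 14 isolated clusters (10.9%) were met in replicate 1, 15 (11.7%) in replicate 2 and 3 (2.34%) in both. On 3L 14 (16.5%), 15 (17.6%) and 11 (12.9%) were met. On 2R the shares were 18.1% and 14.3%, on 2L 16.2% and 11.7%, and on 3R 10.1% and 11.6%. The X and 3R were the lowest arms in replicate 1, whereas in replicate 2 the shares on 3R, 2L and the X were nearly equal. Among the clusters that were not isolated, the arms spread less far apart in proportion. Replicate 1 met from 37.9% (X) to 42.1% (3L) of these, and replicate 2 from 35.3% (X) to 39.1% (2R). Both lists met 23.6% of them on the X, compared with 27.6% for 3L. Lengths were not made equal within arms, so no arm difference peculiar to isolated clusters is claimed.

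Isolated clusters took up a greater share of the few clusters near the centromeres but were only slightly denser there over the 5 arms together. In the 2 Mb nearest the centromere of the 5 arms, 54 of 426 clusters (12.7%) were isolated, against 504 of 9463 (5.33%) in the rest. Per Mb there were 5.40 and 4.62. The arms differed, with 17 isolated clusters in these 2 Mb on the X, 12 on 2L, 12 on 3R, 10 on 2R and 3 on 3L. The whole arms held 5.71 isolated clusters per Mb on the X, 4.82 on 2L, 4.62 on 3R, 4.97 on 2R and 3.46 on 3L. Set against these densities, the 2 Mb stretch was denser on the X, 2L and 3R, nearly equal on 2R and sparser on 3L. The share was 29.8% on the X and 22.2% on 2R, and 6.38% on 3L and 6.74% on 3R. Of the 54, replicate 1 met 7 (13.0%) and replicate 2 met 2 (3.70%), while in the rest each replicate met 71 (14.1%). The shares met over all clusters of these stretches are not given here, so these small counts are a description. Along the arms, full windows of 1 Mb held 0 to 12 isolated clusters, with a median of 5. The most were at 10 to 11 Mb on the X, where 12 of 78 clusters were isolated, with 3 met in replicate 1 and 0 in replicate 2. In the third of windows with the least sequence in clusters 8.45% of the clusters were isolated, and in the third with the most 3.60% were. The numbers of isolated clusters in these windows were 207 and 141, so the count varied less than the share. The sequence in clusters and the gaps come from the same list, and windows with little of it have wider gaps, so these values are a description.

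About as many isolated clusters had another isolated cluster as a neighbour as did not. Of the 558, 260 (46.6%) stood between clusters that were not isolated, and 298 (53.4%) were in rows of 2 or more. The rule itself gives each neighbour of an isolated cluster a gap of at least 10 kb on the shared side. Such a neighbour is thus isolated more readily than a cluster taken from the whole list. No share to be met by the rule alone was computed, so these counts are a description. The longest row was of 8 on 2L, from 10205608 to 10506710, where clusters took up 6.45% of 301 kb and each replicate met 2 of the 8. A row of 6 on 2R, from 134472 to 1147504, spread 9.58 kb of clusters over 1013 kb, and replicate 1 met 2 of them and replicate 2 met 1. Another row of 6, on 2L from 17497682 to 17721802, had 1 met in replicate 1 and 0 in replicate 2.

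The same gap rule applied within 1 replicate list gave clusters that the other replicate had no part in choosing. Replicate 1 had 592 such clusters (10.4% of its list) and replicate 2 had 628 (11.5%), with median lengths of 1610 and 1588.5 bp against 2028 and 2029 bp for the others of each list. Replicate 2 met 232 (39.2%) of the 592 and 72.0% of the other replicate 1 clusters, and replicate 1 met 282 (44.9%) of the 628 and 77.2% of the other replicate 2 clusters. The difference was -32.8 percentage points in one direction and -32.3 in the other. Weighted to equal length, the others were met at 60.9% and 67.1%, and differences of -21.8 and -22.2 points were left, in contrast to the series-wide clusters.

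With 1 shared base, the difference was seen in each bin of length under 5 kb and was smallest at 3 to under 5 kb. At 1 to under 1.5 kb, 22.1% of isolated replicate 1 clusters were met against 48.3% of the others, and 27.5% against 53.0% for replicate 2. At 2 to under 3 kb the shares were 58.9% against 78.3% and 68.0% against 85.8%, and at 3 to under 5 kb 91.4% against 95.1% and 36 of 40 against 95.5%. At 5 kb or more all 25 and all 19 isolated clusters were met. The size of the difference depended on the overlap rule. With at least 50% of a cluster covered by the other list, differences of -17.6 and -16.4 points were left at equal length. The isolated clusters were then lower in each bin under 5 kb, except at 3 to under 5 kb in replicate 2, at 87.5% against 85.2%. When the shared bases had to make up at least 50% of both partners, the difference was -14.3 and -9.09 points, and at equal length it was -5.58 for replicate 1 and 0.116 for replicate 2, so no common direction was left. Nearly all of these clusters met the series-wide list (97.6% and 97.0%), and 60 (10.1%) and 58 (9.24%) met a cluster that was isolated there, compared with 43 (0.844%) and 46 (0.950%) of the others of each list. The gap rules of the lists are alike, so this last difference is a description.

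**Figure D5:**
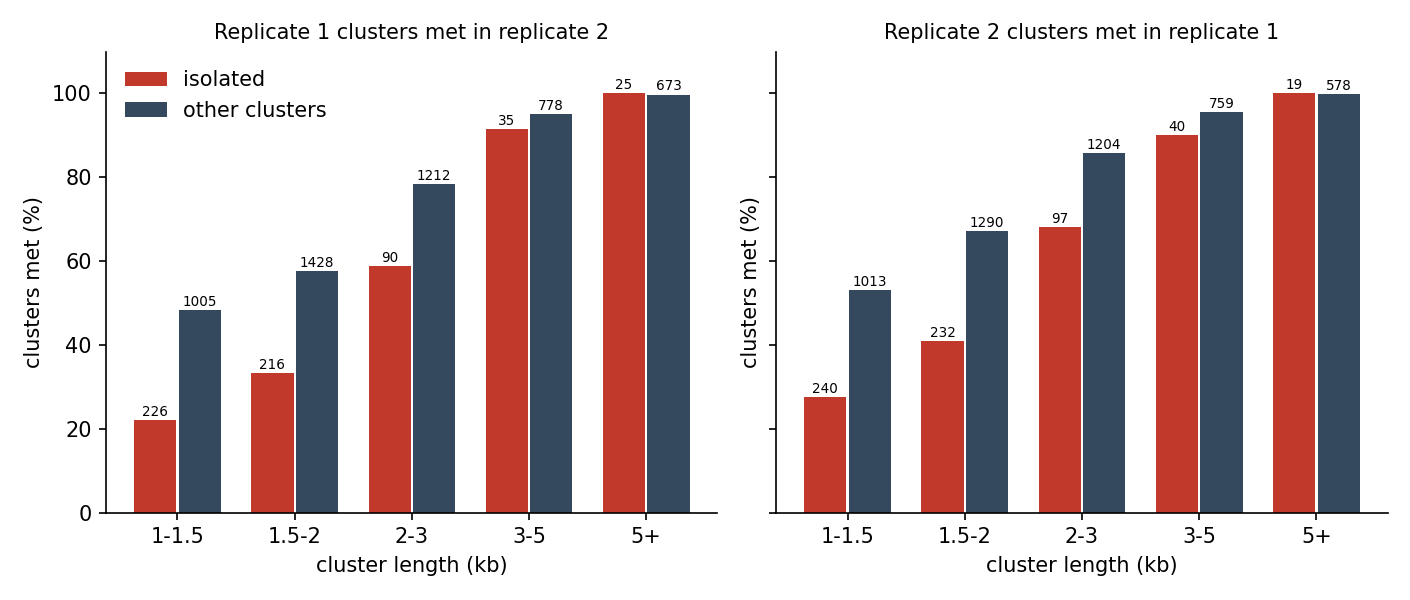
Percent of replicate 1 clusters met in replicate 2 (left) and of replicate 2 clusters met in replicate 1 (right) by length in kb, for clusters at least 10 kb from any neighbour in their own list and for all others, with the number of clusters over each bar. The isolated clusters are lower in each bin under 5 kb and at 100% at 5 kb or more.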

How the data were processed

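H4K8ac-enriched clusters were analysed for 2 ChIP replicates and for the series as a whole; no list of an input library was analysed here. Per the submitters' processing notes the aligner was Bowtie 0.12.7, and coordinates follow FlyBase release 5, per the file headers. The authors deposited a score for each cluster, and its scale, the cluster caller, its thresholds and the use of the inputs are details not given in the sources used here. Columns from outside the series numbered 0. Gaps were computed within each arm between the end of a cluster and the start of the next, and clusters were compared by shared bases in Python 3.11.15 with numpy 2.4.6 and pandas 2.3.3. The number of isolated clusters and of those met in each replicate came out identical with bedtools 2.31.1. Gaps, overlaps and distances were tested on simulated data, 1474 clusters in 20 draws, with 0 wrong. For equal length, other clusters were weighted to the isolated ones in bins of 100 bp up to 3 kb, then 3 to under 5 kb and 5 kb or more. The members, comparisons and regions were chosen with earlier results of these data known. The regions named are the 10 longest, the 10 with the highest score, the 10 with the largest smaller gap, those nearest the gap limit and, on each arm, the longest met in both replicates; any other region was picked with its values in view. No gene and no sequence is given, because no genome or annotation of release 5 was used here. Alternatives were other gaps, length and score limits, arms without the 2 Mb nearest the centromere, stricter overlap rules and single replicates.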

Additional observations from a re-analysis of the deposited data

How the results depend on the processing

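Of 107 recalculated values, 42 stayed within the limit used to judge them, 63 moved and 2 reversed. The limit was a fixed ratio for counts and densities and an interval of the median for lengths and scores, which treats clusters as independent. For shares it was the SD over the 2 replicates, so the tally joins unlike limits. The number of isolated clusters was set by the limits, at 1318 with a gap of 5 kb, 204 with 20 kb and 863 with a limit at the median score. For the score and length limits, clusters below the limit were removed first and the gaps were measured anew among the rest. A length of at least 1301 bp, leaving out the 2 Mb nearest each centromere and gaps free of replicate clusters gave 560, 504 and 549. Per Mb there were 10.4 (2L), 11.8 (2R), 9.41 (3L), 11.7 (3R) and 12.2 (X) with 5 kb, 1.83, 1.56, 1.34, 1.51 and 2.41 with 20 kb, and 6.95, 7.94, 6.52, 8.28 and 6.42 with the score limit, where the X went from the densest to the sparsest arm; the cause was not tested. Isolated clusters stayed shorter than the others, with medians of 1337 and 1907 bp (5 kb), 1709 and 2379 bp (length limit) and 1469 and 2904 bp (score limit), while the others had 1825 bp with 20 kb. The median score of isolated clusters was 0.442 with 20 kb, and with the length limit it was 0.397 against 0.434. In splits chosen after seeing the data it was 0.453 against 0.416 below 1301 bp, 0.392 against 0.432 from there up, 0.408 against 0.418 on the autosomal arms and 0.494 against 0.475 on the X, so its order depended on length and on the arm.

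The mean share of isolated clusters met was 18.6% (5 kb), 14.5% (20 kb), 31.1% (length limit), 36.3% (score limit), 12.1% (50% covered) and 10.1% (reciprocal 50%). Others were met at 51.7%, 58.3%, 30.9% and 23.8% under the last 4, and at 15.4% when weighted by length, an alternative chosen after seeing the data. The differences were -21.8, -23.5, -20.6, -22.0, -18.8 and -13.7 percentage points, and -1.91 at equal length. With 1 replicate left out, the isolated share ran from 13.1% to 14.0%, the others from 37.5% to 40.3% and the difference from -26.3 to -24.4. Within bins of length the left-out replicate gave -2.45 to -0.0867 (1 to under 1.5 kb), -9.38 to -3.85, -5.27 to -0.53, -24.6 to -5.08 and -1.16 to 2.91 (5 kb or more). At 5 kb or more, with 18 isolated clusters and a difference of 0.871, 50% covered gave 13.5 and reciprocal 50% gave -5.03, so its sign is not settled, and the cause was not tested.

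Between the replicate lists, isolated clusters were met at 38.0% (20 kb), 37.7% (50% covered) and 34.7% (reciprocal 50%), and others at 65.2% and 46.3% under the last pair and 64.0% when weighted by length. The differences were -35.0, -27.6, -11.7 and -22.0, from -32.5. Leaving out a replicate was not possible there, since both are needed. No paired analysis was possible because the replicate numbers are shared with input samples, for which no list was analysed here. Depth is unknown, which leaves the detection limit for short clusters unknown too.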

Other observations

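Cluster lengths in the series-wide list had a step at 2 kb, which the isolated clusters shared. There were 406 clusters of 1901 to 2000 bp and 208 of 2001 to 2100 bp. Among the isolated clusters the counts were 14 and 5. The steps on either side were small, with 391 clusters of 1801 to 1900 bp and 187 of 2101 to 2200 bp. All starts and ends of the series-wide clusters on the 5 arms were even numbers. The step was noticed after the data were seen and its cause was not tested.

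Isolated clusters exceeded their share of all clusters among the 100 lowest and the 100 highest scores, but not among the 500 highest. Of the 100 clusters with the lowest scores on the 5 arms 15 were isolated, and of the 100 with the highest 9 were, compared with 5.64% of all clusters. Of the lowest 500 they made up 9.8%, and of the highest 500 they made up 4.6%, which is below their share of all clusters. The 15 had a median length of 1463 bp and 2 of them were met in a replicate. None of the 15 was on the X, whereas 4 of the 9 were.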
